A study of Mus musculus with 6 samples.

Results

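The Ctla2 inhibitors and cathepsins described here are 9 mouse genes, chosen by symbol, out of 19938 genes with a probe set under a single symbol. They are Ctla2a and Ctla2b and the cathepsin genes Ctsl, Ctsb, Ctsz, Ctsh, Ctsc, Ctsw and Ctsd. All 9 were found, each with 1 probe set, and 7 of them had a mean above the median of all genes; Ctla2b and Ctsh did not. RNA was measured on 3 arrays of Bach2 knockout (Ly5.1-) and 3 arrays of wildtype (Ly5.1+) CD4 single-positive thymocytes, late-stage thymic T cells that carry CD4 without CD8. Both groups came from male C57BL/6 donors aged 8 weeks, whose lineage-depleted marrow was mixed in equal parts and given to lethally irradiated male Rag1 knockout recipients of the same age. Rag1 knockout hosts cannot make T or B cells but keep their own thymic epithelium. Cells were sorted by Ly5.1 2 months after transfer, and the design text names separate mice as the source of the samples and calls the 3 of each genotype biological replicates.

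Cathepsins are proteases that work mainly in the acid lumen of lysosomes, and most of them are cysteine proteases of the papain family made as inactive proenzymes. An N-terminal propeptide covers the active site until it is cut off. The mouse Ctla2 proteins resemble such a propeptide without an enzyme attached, were first found as transcripts of activated T cells, and Ctla2a protein inhibits cathepsin L. In the thymus, cathepsin L is known for its part in processing the invariant chain in cortical epithelium during selection of CD4 T cells. Bach2 is a transcriptional repressor that pairs with small Maf proteins on DNA elements holding the core TGAGTCA, a core also bound by AP-1 factors.

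The promoters of the inhibitor genes are shown because both carry that core, which none of the other promoter windows found for these genes held. Windows of the 250 bases before an annotated start were taken from RefSeq's promoter table of build GRCm38.p6, which matched 6 of the 9 genes. Capitals mark the core, read as TGACTCA on the printed strand, and both sequences run 5′ to 3′ on the minus strand. The Ctla2a window is chr13:60936626-60936875 and the Ctla2b window is chr13:60897448-60897697.
Ctla2a: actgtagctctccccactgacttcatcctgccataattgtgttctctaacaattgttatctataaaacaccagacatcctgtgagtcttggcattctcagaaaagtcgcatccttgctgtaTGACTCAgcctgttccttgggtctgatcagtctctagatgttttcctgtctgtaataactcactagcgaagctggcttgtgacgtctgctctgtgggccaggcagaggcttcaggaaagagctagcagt
Ctla2b: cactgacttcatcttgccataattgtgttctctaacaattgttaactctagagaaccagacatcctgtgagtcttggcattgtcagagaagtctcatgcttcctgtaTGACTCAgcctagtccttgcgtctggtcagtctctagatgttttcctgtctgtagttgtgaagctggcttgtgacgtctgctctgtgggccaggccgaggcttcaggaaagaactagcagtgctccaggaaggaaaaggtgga

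The core began 129 bases before the Ctla2a start and 143 bases before the Ctla2b start. The 2 windows were 91.2% identical over 228 aligned bases, so the cores are copies within a shared sequence and do not count as independent matches. A nearby second Ctla2a start in the table has the same core 188 bases before it. Searched on both strands, TGAGTCA was in 4.46% of the 32851 windows of this length in the table. A longer form that adds bases on the Maf side, GCTGAGTCA, was in both Ctla2 windows and in 0.39% of all windows; it overlaps the core. Both motifs were chosen with these sequences in view. Among genes with a promoter window, 8 of the 50 that were higher in knockout cells by limma held the core (16%), against 0 of the 31 that were lower and 4.75% of the 15614 tested. Without Ctla2a and Ctla2b, whose windows prompted the choice of motif, it was 6 of the 48 higher genes (12.5%). The longer form was found for Ctla2a, Ctla2b and Mirt1, a long non-coding RNA, among those 50 higher genes, and for 0.448% of those tested. Without the Ctla2 pair it was 1 of the 48 higher genes (2.08%). The windows of Ctsl, Ctsz, Ctsc and Ctsd held no match, which says only that these letters are not in these windows. Binding was not measured in these samples.

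The arrays were checked on the targeted gene and on the sort. In log2 units, Bach2 read 6.50, 6.42 and 6.52 in knockout cells, against 7.89, 8.20 and 8.05 in wildtype cells, and fell by 1.57 ± 0.11 (limma standard error; adjusted p = 0.000156). The labels do not state the deleted exons. Cd4 lay between 10.34 and 10.35 in knockout cells and between 10.33 and 10.43 in wildtype cells, while array medians lay between 4.93 and 4.97. Cd8a, which the sort should exclude, reached 8.90 on knockout replicate 3, while the remaining 5 arrays lay between 7.67 and 7.90. The 9 genes lie on other chromosomes than Bach2 (chromosome 4) and Ptprc (chromosome 1), the gene of the Ly5.1 allele.

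Both inhibitor genes rose in knockout thymocytes, and none of the 7 cathepsin genes passed the test in either direction. Ctla2a was 2.56-fold and Ctla2b 1.96-fold higher, whereas the cathepsins differed by between -0.15 and 0.15 on the log2 scale. Each difference is knockout minus wildtype, fitted with limma over all genes and adjusted by Benjamini-Hochberg, with a threshold of 0.05. Across the series 0.567% of genes passed, 0.351% as higher and 0.216% as lower, so 2 higher of 9 members stands against that share. That comparison is a description only, since the members were chosen with earlier results of these data known. The 2 are also paralogs whose probes may cross-hybridise, so they do not count as independent calls. In bulk RNA, fewer cells of a type and less RNA per cell cannot be told apart.

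Ctla2a (probe set 10409876), the inhibitor of cathepsin L, was at 7.07, 6.96 and 6.81 in knockout replicates 1 to 3 and at 5.99, 5.46 and 5.32 in wildtype replicates 1 to 3. Every knockout array lay above every wildtype array, as for 5.13% of all genes, and the wildtype arrays were spread more widely. Ctla2a averaged 6.95 ± 0.13 in knockout and 5.59 ± 0.35 in wildtype cells (SD, n = 3 each). The difference was 1.36 ± 0.16 (limma standard error, adjusted p = 0.00463; 95% interval 1.00 to 1.72), which ranked it 10 among the 70 higher genes. Each of the 6 refits that dropped 1 array kept the call, with adjusted p up to 0.0313. It was lost when all 35556 probe sets, named or not, entered the adjustment (adjusted p = 0.129), and in an ordinary linear model without moderated variances (adjusted p = 0.447).

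Ctla2b (probe set 10409866), the close paralog of Ctla2a, was at 5.47, 5.06 and 5.003 in knockout arrays and at 4.30, 4.21 and 4.12 in wildtype arrays. The groups did not overlap here either, and replicate 1 was the highest array of its genotype for both genes. Ctla2b averaged 5.18 ± 0.25 in knockout and 4.21 ± 0.09 in wildtype cells (SD, n = 3 each), a difference of 0.97 ± 0.13 (limma standard error, adjusted p = 0.00912; 95% interval 0.68 to 1.26). Its call was lost without wildtype replicate 3 (adjusted p = 0.0723), with all probe sets in the adjustment (0.159) and without moderated variances (0.447). The probes may cross-hybridise between these paralogs, which makes the split of signal between them uncertain. The log2 difference between the Ctla2a and Ctla2b probe sets on the same array was 1.60, 1.90 and 1.81 in knockout arrays, against 1.69, 1.25 and 1.20 in wildtype arrays. These values overlapped, and the change in that difference was 0.39 (exact permutation test, two-sided, p = 0.2; 3 against 3 arrays allow no p below 0.1, so it could not have passed).

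**Figure D1:**
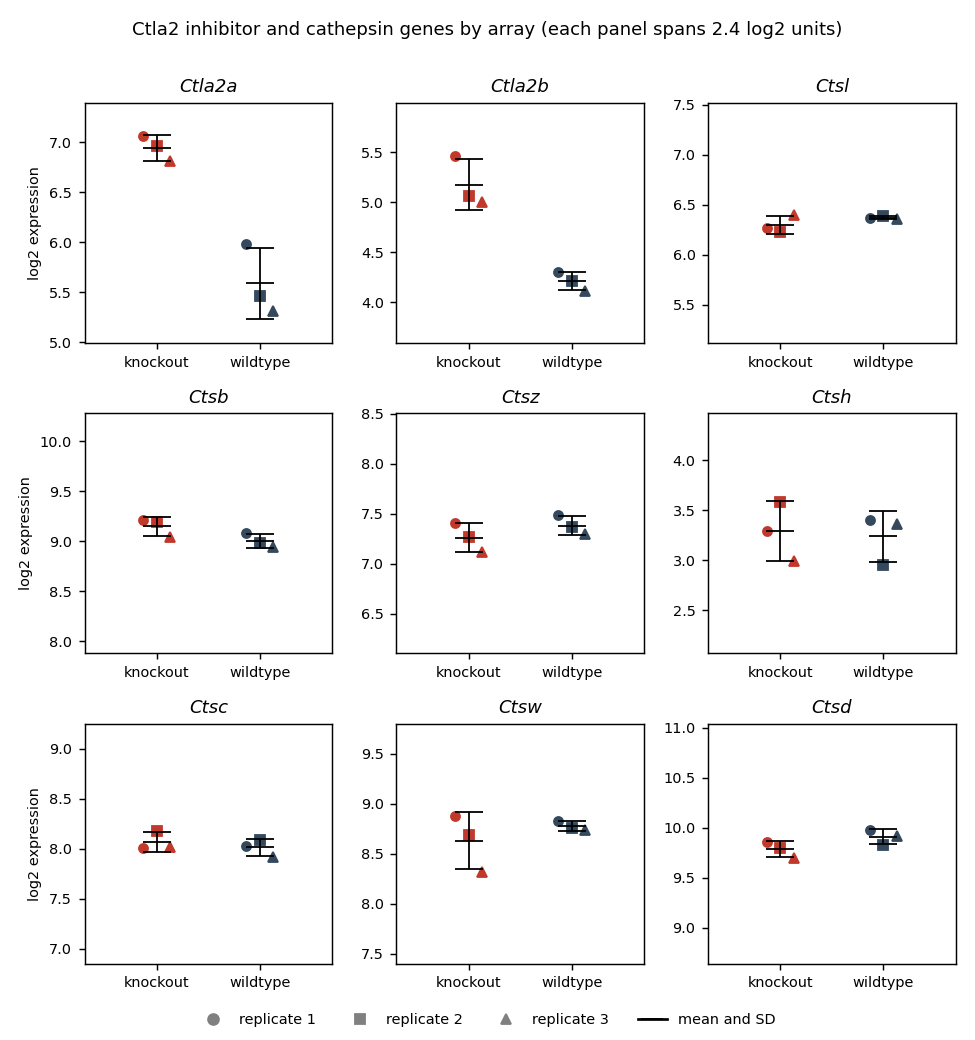
Log2 expression (vertical axis, each panel spanning the same 2.4 units) of the 9 genes in knockout and wildtype arrays, with points for replicates 1 to 3 and bars for the mean and SD. The knockout points lie above the wildtype points for Ctla2a and Ctla2b and overlap with them for the 7 cathepsins.

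Neither of the cysteine endopeptidase genes passed the test. Ctsl, the enzyme that Ctla2a protein inhibits, measured 6.27, 6.23 and 6.40 in knockout arrays, against 6.37, 6.38 and 6.36 in wildtype arrays. The knockout values lay on both sides of the wildtype values, which were within 0.03 of each other. The difference was -0.07, with a 95% interval from -0.28 to 0.13. Ctsb, an endopeptidase that also removes dipeptides from the C-terminus, measured 9.21, 9.19 and 9.04 in knockout arrays, against 9.09, 8.98 and 8.94 in wildtype arrays. The lowest knockout array lay below the highest wildtype array, and the difference was 0.15 (95% interval -0.07 to 0.36).

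The exopeptidase genes did not pass either. Ctsz, a carboxypeptidase, measured 7.41, 7.27 and 7.12 in knockout arrays, against 7.49, 7.37 and 7.29 in wildtype arrays, a difference of -0.12 (95% interval -0.36 to 0.12). Ctsh, an aminopeptidase, measured 3.29, 3.59 and 2.99 in knockout arrays, against 3.41, 2.95 and 3.36 in wildtype arrays. Its signal was the most scattered among the 7 cathepsins in wildtype cells, with an SD of 0.25, and its 95% interval ran from -0.32 to 0.42. Ctsc, the dipeptidyl peptidase that activates granzymes, measured 8.00, 8.18 and 8.02 in knockout arrays, against 8.03, 8.09 and 7.92 in wildtype arrays. The groups overlapped, and the difference was 0.05 (95% interval -0.17 to 0.27).

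Ctsw encodes a papain-family protease found mainly in cytotoxic lymphocytes. It measured 8.88, 8.68 and 8.32 in knockout arrays, against 8.83, 8.76 and 8.73 in wildtype arrays. Knockout replicate 3, the array with the highest Cd8a, had the lowest Ctsw, and the difference was -0.15 (95% interval -0.45 to 0.16), or 0.0082 without that array. Ctsd, an aspartic protease and so not of the papain family, measured 9.86, 9.80 and 9.70 in knockout arrays, against 9.98, 9.83 and 9.91 in wildtype arrays. Only knockout replicate 1 reached into the wildtype range, and the difference was -0.12 (95% interval -0.33 to 0.09). For the 7 cathepsins the adjusted p lay between 0.903 and 0.998 (limma). A p that misses the threshold does not show that levels were equal, and the intervals allow changes from -0.45 for Ctsw to 0.42 for Ctsh. Those bounds lie nearer to 0 than the lower bound of either Ctla2 gene.

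**Figure D2:**
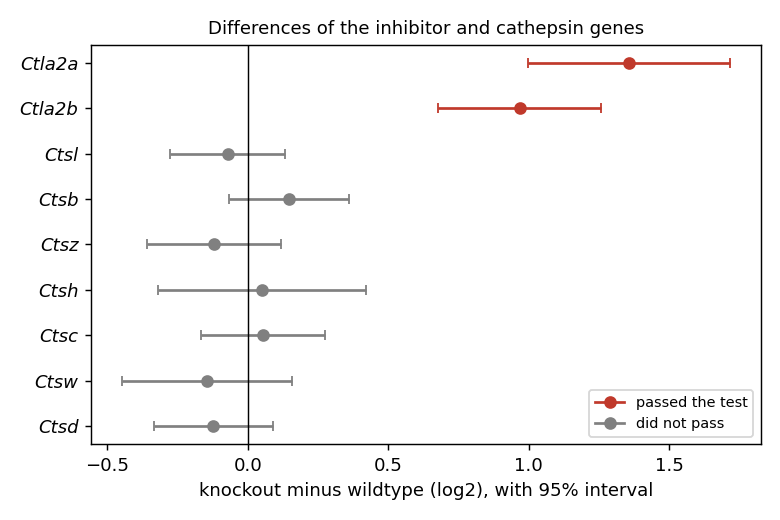
Knockout minus wildtype difference on the log2 scale (horizontal axis) for each gene, with its 95% interval from limma; red marks genes that passed the test. Ctla2a at 1.36 and Ctla2b at 0.97 lie apart from 0, and the intervals of the 7 cathepsins all include 0.

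Unequal change of the inhibitor and its possible targets was then measured within each array, as log2 Ctla2a minus log2 cathepsin, which cancels any shift common to an array. The level of such a difference depends on the probes, so only its change between genotypes is read. Against Ctsl it was 0.80, 0.73 and 0.41 in knockout arrays and -0.38, -0.92 and -1.04 in wildtype arrays. The groups did not overlap, and the change was 1.43 ± 0.23 (standard error of the difference between group means). Against Ctsb, which gave the smallest change, it was -2.15, -2.23 and -2.23 in knockout arrays, against -3.10, -3.52 and -3.63 in wildtype arrays, a change of 1.21 ± 0.16. Against Ctsw, which gave the largest, the change was 1.50 ± 0.20. In all 7 pairs the 3 knockout arrays lay above the 3 wildtype arrays. Each gave p = 0.1 in the exact two-sided permutation test and 0.1 after Benjamini-Hochberg adjustment over the 7 pairs, the smallest p possible here, so none can pass. The pairs share Ctla2a and are not independent.

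**Figure D3:**
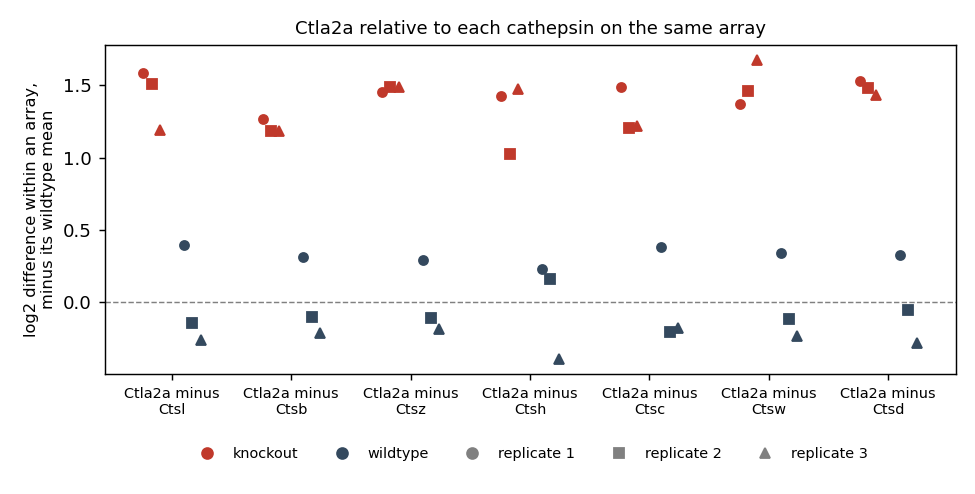
Log2 difference between Ctla2a and each cathepsin on the same array, shifted so that the wildtype mean of each pair is 0 (vertical axis), with knockout arrays left of wildtype arrays and symbols for replicates. Knockout arrays lie above wildtype arrays in all 7 pairs, and wildtype replicate 1 is the highest wildtype array in each.

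The Ctla2 genes sit on chromosome 13 within a cluster of cathepsin genes that are expressed in the mouse placenta. With the 5 nearest tested genes on either side and the 1 tested gene between them, 11 neighbours were measured, and 0 of them passed the test (limma; 1 had an unadjusted p under 0.05). Their differences ran from -0.37 to 0.21. Apart from Dapk1 (mean 6.78 in both groups), these neighbours had means below the median of all genes (5.13). Low signal limits what change could be seen in them. Tpbpb, a trophoblast gene that lies between Ctla2b and Ctla2a, measured 2.23, 1.98 and 2.14 in knockout arrays, against 1.94, 2.00 and 2.26 in wildtype arrays. The placental cathepsins Ctsj, Ctsq, Ctsr and Cts6, on the Ctla2a side, differed by 0.01, 0.01, 0.21 and 0.04. Tpbpa, a trophoblast gene next to Ctla2a, differed by 0.01. On the Ctla2b side, Gm5084, the protein kinase gene Dapk1 and BC051665 differed by 0.10, -0.0033 and -0.10. Also on that side, Ctsll3, whose name marks it as cathepsin L-like, differed by 0.12, and 4930486L24Rik had the lowest value of the region at -0.37 (adjusted p = 0.227). Ctsl lies further along the same chromosome, with 24 tested genes between it and Ctla2a.

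**Figure D4:**
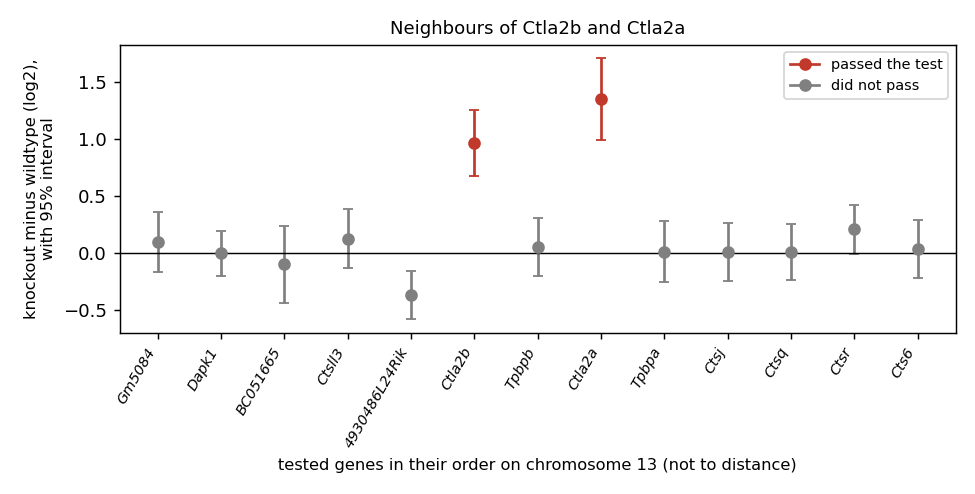
Knockout minus wildtype difference on the log2 scale (vertical axis) with 95% intervals for Ctla2b, Ctla2a and their 11 tested neighbours, in gene order on chromosome 13. Ctla2b and Ctla2a passed the test and the neighbours, from -0.37 to 0.21, did not. Among the neighbours only Dapk1 had a mean above the median of all genes.

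Of the cathepsins outside the 9 genes, 1 of 13 measured fell and 0 rose, beside 0.216% and 0.351% of all genes. That was Ctse, an aspartic protease of endosomes, with 8.76, 8.30 and 8.47 in knockout arrays, against 10.88, 10.89 and 10.87 in wildtype arrays. Its fall by 2.37 ± 0.12 (limma standard error, adjusted p = 5.16e-05) is the opposite direction to the Ctla2 genes, and Ctse lies on chromosome 1 with 84 tested genes between it and Ptprc. An allele carried along with Ly5.1 and the loss of Bach2 cannot be told apart for it. Ctss, the endopeptidase that processes the invariant chain in antigen-presenting cells, measured 9.94, 9.89 and 9.94 in knockout arrays, against 9.59, 9.62 and 9.77 in wildtype arrays. Those groups did not overlap, with the knockout arrays above, and its difference of 0.26 did not pass (adjusted p = 0.525). The median difference of the 13 was 0.0077, beside -0.01 for all genes. Only 4 of the 13 had a mean above the median of all genes, and Ctsj, Ctsq, Ctsr and Cts6 were also among the neighbours.

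Among 10 measured genes of other cathepsin inhibitors, Cst7 rose and 0 fell, beside 0.351% and 0.216% of all genes. Cst7 encodes cystatin F, an inhibitor of cathepsin C and related enzymes in immune cells. It measured 7.33, 7.19 and 7.38 in knockout arrays, against 6.32, 6.68 and 6.69 in wildtype arrays, with no overlap and a difference of 0.74 ± 0.12 (limma standard error, adjusted p = 0.0279). Of the 6 refits that dropped an array, 4 lost it, up to adjusted p = 0.146 without knockout replicate 3, as did the fit with all probe sets in the adjustment (0.249). Cst3 and Cstb, the broadly expressed cystatins C and B, differed by 0.06 and -0.08. The median of the list was 0.02, and 3 of the 10 had a mean above the median of all genes.

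Lysosomal genes at large gave few calls. Of 31 measured hydrolases 0 passed the test (limma), 9 had an unadjusted p under 0.05, which 6.91% of all genes had, and 24 lay above 0. Their median difference was 0.08, and 10 had knockout values all above the wildtype values while 0 had them all below, beside 5.13% and 6.57% of all genes. Glb1, the lysosomal beta-galactosidase, had the smallest p, with 8.19, 8.14 and 8.15 in knockout arrays, against 7.70, 7.51 and 7.14 in wildtype arrays (adjusted p = 0.0604). This value lies close to the threshold: Glb1 passed with a prior that followed expression level (0.0172), with array weights (0.0244) and among genes above the median level (0.0389). It also passed with the replicate number as a block (0.0463) and without wildtype replicate 1 (0.0224). It did not pass in the other 5 refits that dropped an array. Sgsh, a sulfatase that degrades heparan sulfate, had the next smallest p and differed by 0.35 (adjusted p = 0.305). Beside 0.351% and 0.216% of all genes, 1 of 19 measured genes of the lysosomal membrane and its acidification rose and 0 fell. It was Cln3, a lysosomal membrane protein whose loss causes Batten disease in humans, with 7.68, 7.71 and 7.73 in knockout arrays, against 6.99, 7.24 and 7.10 in wildtype arrays (difference 0.60, adjusted p = 0.0261). Of the 6 refits that dropped an array, 5 lost this call, up to adjusted p = 0.141, as did the fit with all probe sets (0.173). Of 9 genes of lysosomal sorting and transcription 0 passed (2 at an unadjusted p under 0.05), with the smallest p for Gnptg, a subunit of the enzyme that tags hydrolases with mannose 6-phosphate (difference 0.50), and Igf2r, a receptor for that tag (-0.29). Tfeb and Tfe3, which activate lysosomal genes, both differed by 0.02.

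**Figure D5:**
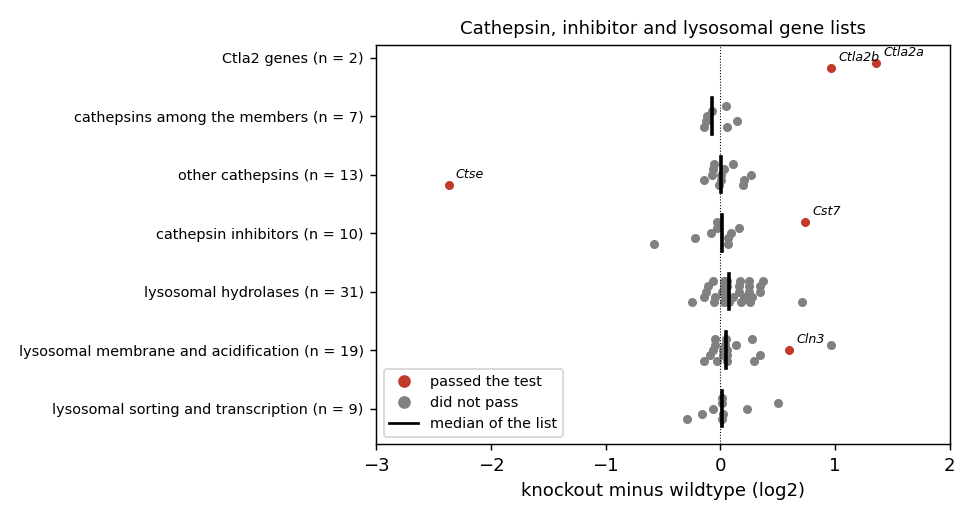
Knockout minus wildtype difference on the log2 scale (horizontal axis) of each measured gene in the Ctla2, cathepsin, inhibitor and lysosomal lists; red points passed the test and bars mark list medians, drawn for lists but not for the Ctla2 pair. Ctla2a, Ctla2b, Cst7 and Cln3 passed as higher and Ctse at -2.37 as lower.

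Lists of cytotoxic granule, class II antigen processing and T cell activation genes were looked at next. Of 10 cytotoxic granule genes 0 passed the test (limma; 6 had an unadjusted p under 0.05, beside 6.91% of all genes). Their median of 0.0092 covers 5 differences above 0 and 5 below. Knockout values lay all above the wildtype values for 2 and all below for 3, beside 5.13% and 6.57% of all genes. Nkg7, Gzmb and Prf1 differed by -0.76, -0.61 and -0.48, and Serpinb9 by 0.32. Eomes, a transcription factor of cytotoxic lymphocytes, differed by -0.70 and Srgn, the granule proteoglycan serglycin, by 0.43. Eomes passed without wildtype replicate 1 (adjusted p = 0.0131) and with the replicate number as a block (0.0390). Srgn passed with a prior that followed expression level (0.0107). Beside 0.216% and 0.351% of all genes, 1 of 9 genes of class II antigen processing fell and 0 rose. It was H2-Ob, a chain of the peptide-loading regulator H2-O, which fell by 0.65 (limma, adjusted p = 0.0209). H2-Ob did not pass in 3 of the 6 refits that dropped an array (adjusted p up to 0.119), nor with all probe sets in the adjustment. Of 13 genes of T cell activation and memory, 10 had an unadjusted p under 0.05 (limma), beside 6.91% of all genes. Knockout values lay all above the wildtype values for 5 and all below for 7, beside 5.13% and 6.57% of all genes. S100a6, a calcium-binding protein, rose by 0.94, while the chemokine receptor Cxcr3 fell by 1.42 and the galectin Lgals1 fell by 0.76. Ctla4 (-1.09, adjusted p = 0.0568), S100a4 (-1.37, 0.0580) and Tnfrsf9 (-0.74, 0.0675) did not pass in this fit. The count of lower genes in this list, 2 here, depended on the setting. It was 5 with a prior that followed expression level, among genes above the median level, with array weights and without wildtype replicate 1. It was 1 without knockout replicate 1, knockout replicate 3 or wildtype replicate 3, and 0 without moderation or with all probe sets. Lgals1 did not pass in 4 of the 6 refits that dropped an array (adjusted p up to 0.0808).

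Markers of other cells varied beside the Ctla2 values. Of 13 measured macrophage and monocyte markers, Lyz2, the lysozyme of myeloid cells, rose and 0 fell, beside 0.351% and 0.216% of all genes. Lyz2 measured 7.03, 6.82 and 6.17 in knockout arrays, against 5.68, 4.97 and 5.22 in wildtype arrays, and 4 of the 6 refits that dropped an array lost its call. Knockout replicate 1 was highest and replicate 3 lowest among knockout arrays for Lyz2 and for 6 of the 9 genes. These were Ctla2a, Ctla2b, Ctsb, Ctsz, Ctsw and Ctsd, of which the last 3 had a lower mean in knockout cells. How many of all genes share this order was not counted, so it is a description only. The mean of the macrophage list was 4.78, 4.59 and 4.43 in knockout arrays, against 4.47, 4.33 and 4.45 in wildtype arrays, so the groups overlapped. Of the 13, 7 lay above 0 and 6 below, with a median of 0.03. Knockout values lay all above the wildtype values for 3 and all below for 1, beside 5.13% and 6.57% of all genes. Csf1r and Adgre1, the defining receptors of that list, differed by 0.08 and -0.06. Both had means below the median of all genes (5.13), which 4 of the 13 exceeded. The complement genes C1qa, C1qb and C1qc differed by 0.42, 0.35 and 0.71 without passing (limma, unadjusted p = 0.0064, 0.080 and 0.00185). The integrin gene Itgam and Mpeg1, the macrophage perforin, differed the other way, by -0.33 and -0.31, also without passing (unadjusted p = 0.0185 and 0.0428). The part of these cells in the Ctla2 difference was not tested.

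Regulatory T cell markers ran the other way. Of 8, 5 fell and 1 rose, beside 0.216% and 0.351% of all genes. The mean of the list was 7.09, 6.95 and 7.07 in knockout arrays, against 7.63, 8.33 and 8.35 in wildtype arrays. Foxp3, the factor that defines these cells, fell in all 6 refits that dropped an array, while Il2ra, Lrrc32, Ikzf2, Nt5e and the riser Izumo1r lost their calls in 5, 2, 1, 4 and 5 of them. Wildtype replicate 1, with the lowest wildtype mean of this list, had the highest wildtype Ctla2a and Ctla2b. Without it the Ctla2a difference was 1.56 and the Ctla2b difference 1.01, both past the test. Since dropping the highest wildtype array of a gene can only raise its difference, these values do not bear on the mix of cells. Whether that mix contributed was not tested. Among granulocyte and mast cell markers (10 measured), dendritic cell markers (9), B cell markers (6), thymic epithelial markers (8) and double-positive and CD8 markers (6), 0 passed by limma. At an unadjusted p under 0.05 there were 2, 0, 0, 1 and 2, beside 6.91% of all genes. In the same order, 1, 1, 1, 3 and 5 of these markers had a mean above the median of all genes. Low signal limits what change could be seen in the others. The smallest p in the dendritic cell list was for Itgax (0.31) and Ccr7 (-0.15), in the B cell list for Cd79a (0.30) and Blk (0.07), and in the epithelial list for Prss16 (-0.26) and Epcam (-0.11), each with its difference. The mast cell genes Cpa3, Mcpt4 and Kit differed by 0.08, 0.04 and -0.03. The granulocyte genes S100a8 and S100a9 differed by 0.97 and 0.78, while Mpo, Elane, Ly6g and Camp, of the same lineage, differed by -0.14, -0.11, 0.05 and 0.15, and the median of the list was 0.05. S100a8 passed without knockout replicate 2 (adjusted p = 0.0347), and S100a9 with the replicate number as a block (0.0214).

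Double-positive and CD8 markers, which mark earlier or CD8-bearing thymocytes, all had a higher mean in knockout cells, though none of the 6 passed. Their median difference was 0.42, beside -0.01 for all genes, and 0 of the 6 had groups that did not overlap. The mean of the list was 6.66, 7.28 and 7.93 in knockout arrays, against 6.53, 6.84 and 6.94 in wildtype arrays. Rag1, a recombinase subunit of immature lymphocytes, measured 6.55, 7.92 and 8.75 in knockout arrays, against 5.70, 6.61 and 7.09 in wildtype arrays, a difference of 1.27 (adjusted p = 0.591). With the replicate number as a block in the limma fit, Rag1 passed (adjusted p = 0.00864). Ptcra, the pre-T cell receptor alpha chain, differed by 0.33 (adjusted p = 0.636). Knockout replicate 3, the highest array for this list, was the lowest knockout array for Ctla2a and Ctla2b, and wildtype replicate 1, the lowest for this list, was the highest wildtype array for both. Without knockout replicate 3 the Ctla2a difference was 1.42 and the Ctla2b difference 1.05, both past the test. Dropping the lowest knockout array of a gene can only raise its difference, so these refits say nothing of such cells. The part of such cells in the Ctla2 difference was not tested.

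Of 8 CD4 T cell markers, Trat1, an adaptor of the T cell receptor complex, rose by 0.81 (limma, adjusted p = 0.00461), and the other 7 did not pass. Over all genes 0.351% passed as higher. With all probe sets in the adjustment, the calls of Cxcr3, S100a6, Lgals1, Lyz2, Trat1 and the 6 regulatory T cell genes were lost (adjusted p from 0.0551 for Trat1 to 0.349 for Izumo1r), and Ctse kept its call (0.0155).

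The genes whose pattern was most like that of Ctla2a, by Pearson's r over the 6 arrays among the 9969 genes above the median level, were Tmbim4 (0.992), Zbed3 (0.990), Fam3c (0.989), Iffo2 (0.987) and Prag1 (0.983). These are descriptions over 6 arrays that share the split by genotype. Of the 5, Iffo2 and Prag1 rose, by 0.65 and 1.67, and the other 3 did not pass the test. Among the 9 genes, Ctla2b had an r of 0.961 with Ctla2a, Ctsb 0.872, Ctsc 0.383, Ctsh 0.229, Ctsw -0.24, Ctsz -0.27, Ctsd -0.52 and Ctsl -0.60.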

How the data were processed

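The authors deposited log2 values for 35556 probe sets on 6 arrays. RMA and Partek are named without versions, per the submitters' processing notes; the scale was read from the values (1.10 to 13.2), and the labels name no genome build. Since RMA equalises the distributions of arrays, it hides any shift common to all genes. The table holds no detection calls, and 3 arrays a group limit the precision.

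Symbols came from the platform annotation: 21789 probe sets had 1 symbol, 1621 several and 12146 none listed. Each gene was taken from its probe set with the highest mean. Differences were fitted with limma 3.58.1 (lmFit, eBayes, two-sided) in R 4.3.3 and tested on simulated data. The members and the 16 lists were chosen with earlier results of these data known. Named are all 9 members, called list genes, the 2 of smallest p where a list had no call, the 5 genes most like Ctla2a and its neighbours; other genes were named after their values were seen. Of 203 distinct list genes, those without a probe set under a single symbol were not analysed here. A table of assembly GRCm38.p6 gave gene order. Promoters were aligned with Biopython 1.88; figures used matplotlib 3.10.9 in Python 3.11.15. Alternatives covered priors, moderation, a filter, scaling, array weights, probe sets, a replicate block and leaving out each array.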

Additional observations from a re-analysis of the deposited data

How the results depend on the processing

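Over all genes 113 changed. That count was 178 with a prior that followed expression level, 1 without moderation and 37 with all probe sets, and 47 to 118 when each array was left out in turn, the fewest without wildtype replicate 3. Of the 9 members 2 were higher; the count was 0 without moderation, 0 with all probe sets and 1 among genes above the median level, where Ctla2b was not tested. It was 1 to 2 when arrays were left out, with 1 without wildtype replicate 3, and 0 members were lower in every fit run. The Ctla2a difference stayed at 1.36 without moderation (adjusted p = 0.447) and with all probe sets (0.129), where it did not pass, and ran from 1.22 to 1.56 over fits that left out an array, all past the test. With all probe sets more features entered the adjustment and a new variance prior was fitted. Members near 0 changed sign: Ctsh was at -0.0068 with array weights, -0.10 without knockout replicate 2 and -0.09 without wildtype replicate 2, Ctsc at -0.0028 without knockout replicate 2 and Ctsw at 0.0082 without knockout replicate 3. Over the 6 fits that dropped an array Ctsh ran from -0.10 to 0.20, Ctsc from -0.0028 to 0.094 and Ctsw from -0.27 to 0.0082. The other settings run (averaged probe sets, array weights, a robust prior, quantile normalization once more, median centring) kept both Ctla2 calls. Titles share replicate numbers, and what a shared number stands for cannot be told from them. Over all genes, deviations of same-numbered arrays correlated at 0.21, 0.11 and -0.07, and 3 of 6 arrays correlated best with their own number. Some genes followed the number: Rag1, Cd74 and H2-Aa rose, and Ctla2a and Ctla2b fell, from replicate 1 to 3 in both genotypes. With the replicate number as a block, 134 genes changed, 2 members were higher and 0 lower, and Ctla2a had an adjusted p of 0.00176. That block put Rag1 (adjusted p = 0.00864), S100a9 (0.0214), Eomes (0.0390) and Glb1 (0.0463), which the unblocked fit did not call, past the threshold. It also gave 4 lower genes of T cell activation and memory, against 2 without it, and 2 higher macrophage markers, against 1. All 7 differences of Ctla2a from a cathepsin within an array kept their direction when each array was left out. Arrays of 3 a group limit what small changes of the cathepsins could be seen.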
